A study of Mus musculus with 3 samples.

Results

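Mammary cells recovered from the lung were compared with mammary cells sorted by their surface markers, as 1 pooled RNA library on each side. The lung-colonizing cells (LCC) came from dissociated glands of FVB mice, carried GFP or were stained with the dye DDAO, and were injected into the vein of FVB recipients. They were sorted by that label alone from the lungs 1 day later, with no gate on EpCAM or CD29. In each experiment 8 donor mice supplied 4 recipients in 2 injections of 2500000 cells, and the LCC library combined 15 experiments, 42 lungs and 455880 cells. The other library (E-Int29-Hi) held FVB mammary cells that a sorter had gated on intermediate EpCAM with high CD29, with 3 samples combined, which the labels describe as a subset that contains the lung-colonizing cells. A library of undissociated FVB mammary gland (MG, 3 samples combined) is given as a point of reference. The donors in the injection experiments were females, and age, parity and estrous stage are not given in the sources used here. Only the LCC passed through an injection and a day in the lung.

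Gene levels are FPKM, a unit that divides the fragments of a gene by its length and by the size of the library. Of 22378 genes in each library, 22210 had a status of OK in LCC and E-Int29-Hi, and the 12205 at 1 FPKM or more in either of these were compared. Each difference is log2((LCC + 1)/(E-Int29-Hi + 1)), so positive values mean a higher level in LCC, and the added 1 FPKM understates the difference of low genes. A gene is called higher or lower where this value is 2 or more in size, that is 4-fold. With 1 library on each side no difference has a replicate check, no test was possible, and the pooling of animals hides their spread. Total read numbers are not given in the sources used here. Where 3 FPKM values stand together below, LCC comes first, E-Int29-Hi next and MG last.

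The mammary epithelium has an inner luminal layer, which can secrete milk, and an outer basal or myoepithelial layer, which contracts and rests on the basement membrane. Basal cells carry the alpha6 and beta1 integrins (CD49f and CD29) and lower EpCAM than luminal cells, so a gate on high CD29 with intermediate EpCAM is used to enrich them. Cells that arrest in lung capillaries meet blood, platelets, endothelium and resident leukocytes, and chemokines, matrix proteases and matrix proteins are the classes of gene most often followed in such cells.

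In LCC, 566 genes (4.64% of those compared) were at least 4-fold higher than in E-Int29-Hi and 532 (4.36%) were at least 4-fold lower. Among the lists described below, 9 of 16 CC chemokine genes, 9 of 22 metalloproteinase and inhibitor genes and 11 of 22 simple epithelial genes were higher. On the lower side were 14 of 24 smooth muscle contractile genes and 12 of 19 basal keratin and transcription factor genes. Most of the genes called belong to none of these 5 lists. The median gene stood 0.26 (log2) higher in LCC, the central 50% of genes lay between -0.48 and 0.89, and 64.7% were within 2-fold. At 16-fold or more, 68 genes were higher and 75 lower, and at 64-fold or more, 11 and 8. Scaling each library by its median ratio (divisors of 1.10 and 0.908) brought the median to 0.01 and left 442 genes higher and 682 lower, so the balance of the counts depends on the scale.

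**Figure D1:**
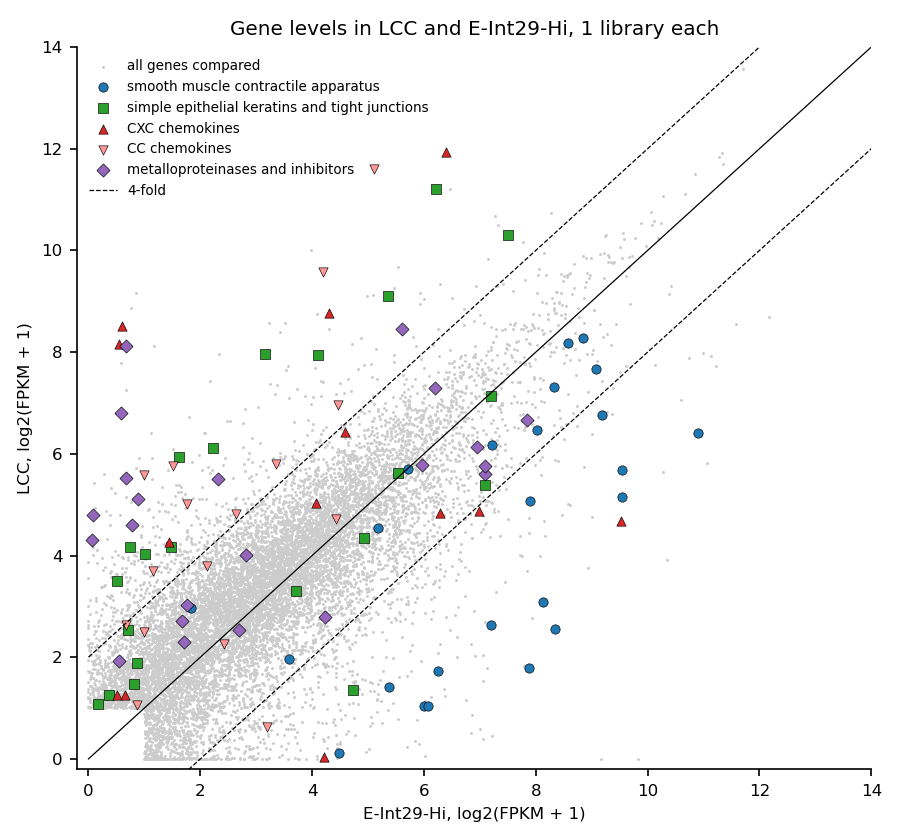
Level of each of the 12205 genes in E-Int29-Hi (x axis) and LCC (y axis), as log2(FPKM + 1), with the line of equal level and dashed lines at 4-fold. In the coloured lists, 11 of 22 simple epithelial, 9 of 16 CC chemokine and 9 of 22 metalloproteinase genes lie above the upper dashed line and 14 of 24 contractile genes lie under the lower one.

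Calls were more frequent among abundant genes. Among the 779 genes that reached 100 FPKM in LCC or E-Int29-Hi, 85 (10.9%) were higher in LCC and 96 (12.3%) lower. Of the 3519 that reached only 1 to 5 FPKM, 36 (1.02%) were higher and 34 (0.966%) lower, a range in which the added 1 FPKM keeps most differences under 4-fold.

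Genes that mark other cell types differed too, and their values stand here before the results they touch. All 8 pan-leukocyte genes compared were higher in LCC, with summed levels of 263.8, 23.8 and 61.2 FPKM. The signalling adaptors of myeloid cells Tyrobp (58.3, 6.23 and 9.11 FPKM) and Fcer1g (50.4, 3.65 and 5.599 FPKM) were the most abundant of these. Of 16 macrophage and monocyte genes compared, 4 were higher (Ctss, Msr1, Mpeg1 and Itgam) and their sums were 695.4, 192.1 and 375.2 FPKM. Among 9 dendritic cell genes, 6 were higher, with sums of 276.5, 46.6 and 80.4 FPKM. For neutrophils 5 of 6 genes compared were higher, with sums of 138.6, 4.2 and 34.4 FPKM, yet the defining genes Ly6g, Ngp, Mpo, Camp and Cxcr2 were listed at 0 in LCC. Most of the LCC sum came from Il1b (59.58 FPKM) and Mmp9 (33.65 FPKM), which are given again below with the interleukins and proteases. The 3 lymphocyte genes compared were within 4-fold, with sums of 8.5, 3.5 and 17.0 FPKM.

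Lung epithelial genes were higher in 7 of 14 members compared, with sums of 815.5, 172.9 and 77.6 FPKM. Most of the LCC sum came from Scgb1a1, the club cell secretoglobin (572, 0.798 and 0.352 FPKM), while most of the E-Int29-Hi sum came from Pdpn, which basal epithelium also expresses (143.9, 157 and 65.2 FPKM). The club cell secretoglobin Scgb3a2 (13.6 FPKM) and the surfactant gene Sftpa1 (4.99 FPKM) were listed at 0 in E-Int29-Hi. Of 16 fibroblast genes, 11 were higher and 0 lower, and the sums of 2347.5, 223.2 and 3775.1 FPKM put LCC between the gated cells and the gland. Endothelial genes did not follow this pattern: 0 of 16 were higher, 1 (Vwf) was lower, and the sums were 258.5, 262.4 and 937.1 FPKM. All 4 globin genes, which have near-identical copies, were higher, and so were 2 of 8 pericyte genes (Pdgfrb and Cspg4), while 1 of 4 adipocyte genes (Fabp4) was lower. Of 3 platelet genes compared, Ppbp was higher but lost its call with median ratio scaling, and Pf4 and Itga2b stood lower within 4-fold. The platelet sums were 9.6, 11.1 and 9.8 FPKM. No skeletal muscle gene of the list reached 1 FPKM in LCC or E-Int29-Hi. In pooled RNA, fewer cells of a type and less RNA per cell cannot be told apart, and the part of these cell types in the differences below was not tested. Leaving out the listed lung epithelium, leukocyte, platelet and erythroid markers left 531 genes higher and 532 lower. That step removes only the listed genes and keeps the fibroblast markers, so it cannot show how much these cell types contribute.

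**Figure D2:**
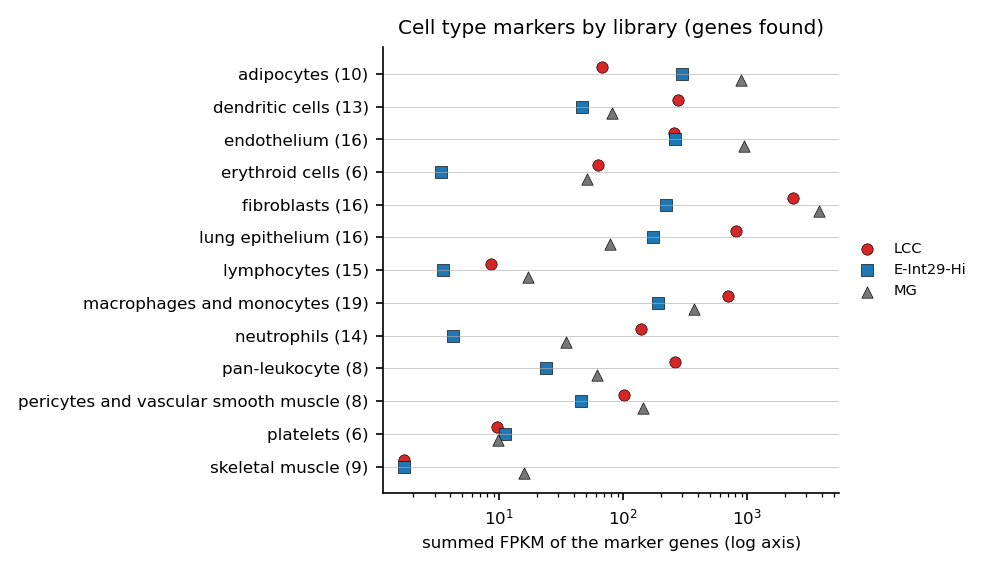
Summed FPKM (log axis) of the genes found in each marker list, with 1 point per library and the number of genes found in parentheses. Leukocyte, fibroblast and lung epithelium sums are higher in LCC than in E-Int29-Hi, whereas the endothelial sums of both are nearly equal.

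The genes behind the gate were close in level. Epcam stood at 325, 279 and 209 FPKM, a difference of 0.22, and Itgb1, which encodes CD29, at 401, 296 and 198 FPKM, a difference of 0.43, so neither transcript was 4-fold apart although only E-Int29-Hi was gated on the proteins. The basal marker Krt14 stood at 209.8, 2380 and 103.9 FPKM. The epithelial gene Krt18 stood at 2368, 73.5 and 819 FPKM, while Cdh1 was level at 139.8, 145 and 171.5 FPKM.

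CXC chemokines, small secreted proteins that act on neutrophils and other leukocytes through CXCR receptors, divided into a higher and a lower group. Of 13 compared, 5 were higher (Cxcl1, Cxcl2, Cxcl3, Cxcl5 and Cxcl9) and 3 lower (Cxcl12, Cxcl13 and Cxcl14), with a list median of 0.96. The neutrophil attractant Cxcl2 stood at 433, 18.8 and 288 FPKM, a difference of 4.46. Its neighbour Cxcl3 stood at 284, 0.454 and 40.2 FPKM, a difference of 7.61. The gland lay between both libraries for each of them. Cxcl9, a T cell attractant, stood at 18.2, 1.70 and 22.0 FPKM, so here LCC and MG were alike and E-Int29-Hi was low. In the other direction, Cxcl14, which epithelia make constitutively, stood at 24.6, 735 and 54.5 FPKM, a difference of -4.85, with E-Int29-Hi alone high. Cxcl12, the ligand of CXCR4, stood at 28.5, 125 and 57.7 FPKM, and the B cell attractant Cxcl13 at 0.0212, 17.4 and 1.98 FPKM.

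The promoters of some of these genes hold the binding motif of NF-kappaB, the transcription factor of inflammatory signalling, and those of the genes with the highest levels are shown for that reason. Sequences are from RefSeq on build GRCm38.p6, read on the strand of the gene from 60 bases before the motif to the base before the start of the transcript or to 60 bases past the motif, whichever comes first, with the motif in capitals. The Cxcl2 and Cxcl3 stretches therefore end short of the start. Cxcl1, Cxcl2 and Cxcl3 lie near each other on chromosome 5, at chr5:90891114-90891244, chr5:90903742-90903872 and chr5:90785968-90786098 on the plus strand. The Il6 stretch is chr5:30013010-30013113 on the plus strand and that of Nfkbia, the NF-kappaB inhibitor, chr12:55492648-55492736 on the minus strand.
Cxcl1: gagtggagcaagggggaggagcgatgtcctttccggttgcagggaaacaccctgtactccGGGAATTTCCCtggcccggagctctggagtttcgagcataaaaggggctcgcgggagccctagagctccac
Cxcl2: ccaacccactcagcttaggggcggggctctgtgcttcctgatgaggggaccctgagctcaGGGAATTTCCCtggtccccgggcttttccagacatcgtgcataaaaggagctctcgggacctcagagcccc
Cxcl3: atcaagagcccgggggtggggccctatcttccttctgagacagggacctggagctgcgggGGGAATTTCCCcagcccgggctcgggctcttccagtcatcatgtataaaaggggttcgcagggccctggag
Il6: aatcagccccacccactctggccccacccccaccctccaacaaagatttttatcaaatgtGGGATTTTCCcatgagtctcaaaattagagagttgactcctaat
Nfkbia: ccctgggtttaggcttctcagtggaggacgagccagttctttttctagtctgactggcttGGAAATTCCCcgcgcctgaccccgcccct
The 3 Cxcl genes carry the same 11 letters, which match the motif on both strands, and these begin 71, 97 and 73 bases before the start. Of the 28 distinct genes called higher in the CXC, CC, interleukin and NF-kappaB lists, 20 were in the promoter table and 7 had the motif within 250 bases of the start, namely Ccl9, Cxcl1, Cxcl2, Cxcl3, Il6, Nfkbia and Tnfaip3. Among all genes called higher, 6.46% of 480 promoters held it, among those called lower 6.73% of 565, and among all compared genes 4.88% of 12043. A match is a description of the letters and not evidence that the site was used.

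CC chemokines act mainly on monocytes and lymphocytes. Of 16 compared, 9 were higher in LCC, 1 (Ccl27a) was lower, and the median was 2.31. The monocyte attractant Ccl7 stood at 765, 17.3 and 163.7 FPKM, a difference of 5.38. Ccl3 and Ccl4, macrophage inflammatory proteins, stood at 54.6, 9.21 and 34.1 FPKM and at 123, 21.0 and 62.5 FPKM. Ccl5 stood at 31.1, 2.40 and 19.3 FPKM. For Ccl3, Ccl4, Ccl5 and Ccl7 the gland lay between both libraries. Ccl17 and Ccl22, ligands of CCR4 known from dendritic cells, were high in LCC alone, at 47.0, 0.989 and 0.997 FPKM and at 53.5, 1.84 and 1.61 FPKM. These last genes are also members of the dendritic cell markers given above. The 6 members within 4-fold included the eotaxin Ccl11 (25.2, 20.5 and 75.1 FPKM), and Ccl6 (27.3, 5.26 and 3.44 FPKM), called higher, lost its call with median ratio scaling. Ccl27a, a skin epithelial chemokine (0.553, 8.09 and 1.87 FPKM), was lower.

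Colony-stimulating factors and interleukins held 9 higher genes of 23 compared and 0 lower ones, or 1 lower with median ratio scaling, with a median of 1.49. Csf2, which encodes GM-CSF, differed most (464, 0.694 and 18.7 FPKM, 8.10). Its relatives did not follow it. Csf1, the macrophage growth factor, stood at 98.5, 215 and 234 FPKM, and Csf3, the granulocyte factor, at 182, 84.7 and 193 FPKM, both within 4-fold. In the interleukin 1 family, Il1b (59.6, 1.19 and 18.1 FPKM), Il1a (17.0, 0.943 and 4.95 FPKM), the alarmin Il33 (55.9, 2.62 and 46.6 FPKM) and the receptor antagonist Il1rn (51.6, 0.811 and 22.0 FPKM) were all higher. Il12b (28.4, 0.249 and 0.658 FPKM) and Il23a (39.97, 2.13 and 1.47 FPKM), whose products pair to form interleukin 23, were also higher, as was Il34, a ligand of the CSF1 receptor (24.4, 3.90 and 5.88 FPKM). Il1b is also on the neutrophil marker list given above, and Il12b on the dendritic cell list.

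In the interleukin 6 family 1 ligand was higher and 2 receptors were lower. Il6 stood at 613, 43.1 and 182 FPKM, a difference of 3.799, while Il11 (91.6, 22.7 and 6.83 FPKM, 1.97) and Lif (128, 61.7 and 51.1 FPKM, 1.05) were within 4-fold. The receptor gene Il6ra was lower in LCC (1.85, 25.6 and 17.3 FPKM, -3.22), and so was Osmr, a receptor of oncostatin M (28.2, 158.9 and 76.8 FPKM, -2.45). The shared receptor subunit Il6st (41.0, 104.6 and 147 FPKM) and Lifr (8.24, 30.5 and 33.4 FPKM) differed by -1.33 and -1.77. Stat3, the transcription factor that these receptors activate, was lower as well (57.7, 325 and 149.6 FPKM, -2.47). For Il6ra, Osmr and Stat3 the gland again lay between the libraries. Of all 28 cytokine and chemokine receptor genes compared, 6 were higher, among them Il1r2, Il1rl1, Il7r, Ccr7 and Ifngr2, and only Il6ra and Osmr were lower, with a median of 1.34. Ccr7 is also on the dendritic cell marker list given above. Il1rl1, the receptor of interleukin 33, stood at 220.0, 0.5004 and 73.1 FPKM. Ifngr2 (22.9, 4.79 and 9.80 FPKM) lost its call with median ratio scaling.

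**Figure D3:**
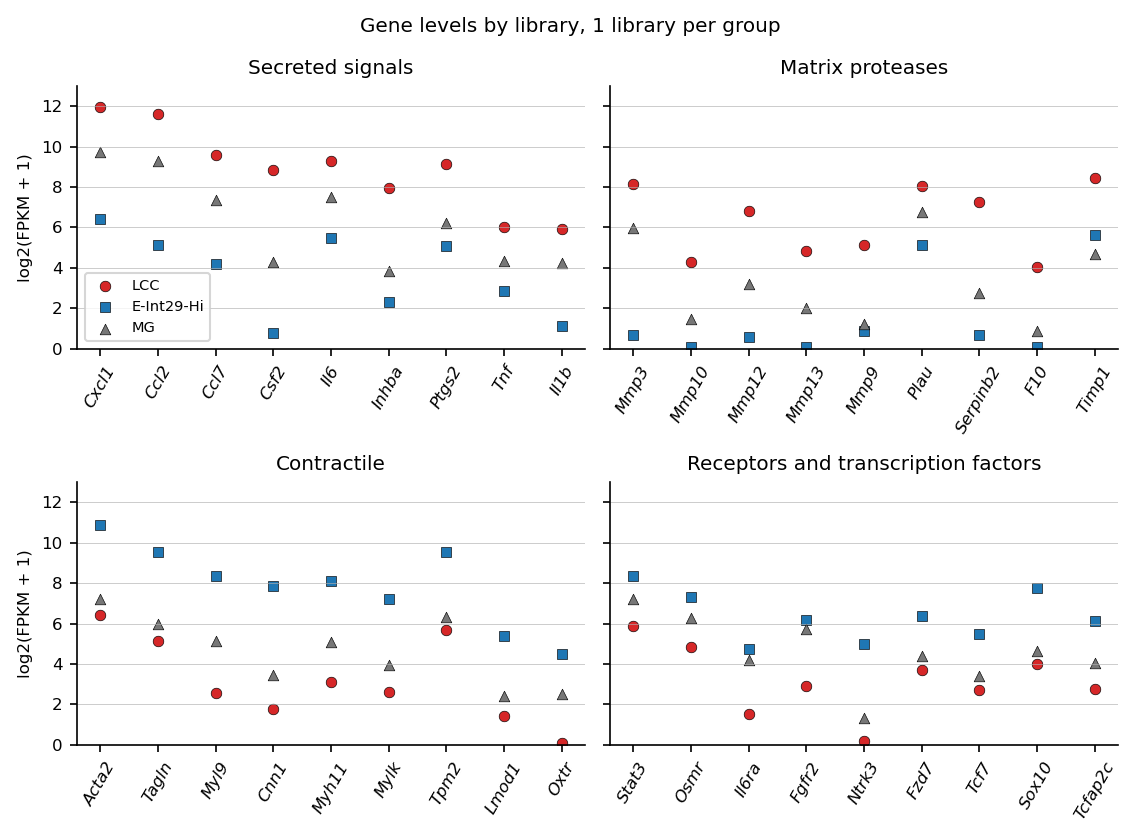
Levels of 36 genes as log2(FPKM + 1) in LCC (red circles), E-Int29-Hi (blue squares) and MG (grey triangles), 1 library each. LCC is highest for the secreted signals and proteases shown and lowest for the contractile, receptor and transcription factor genes, and MG lies between both except for Timp1, where MG is lowest.

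The NF-kappaB pathway genes that were higher encode regulators of the pathway, and none encodes a subunit of the factor. Of 26 compared, 5 were higher (Nfkbia, Nfkbiz, Tnfaip3, Traf1 and Irak3) and 0 lower, with a median of 0.71. Nfkbia, which holds NF-kappaB in the cytoplasm, stood at 910.2, 141 and 397 FPKM, a difference of 2.68. Tnfaip3, the A20 inhibitor, stood at 146, 22.8 and 74.98 FPKM, and the adaptor Traf1 at 37.2, 2.05 and 6.76 FPKM. The subunit genes Nfkb1 (187, 133 and 181 FPKM), Nfkb2 (115, 84.7 and 61.1 FPKM) and Rela (64.6, 78.8 and 61.1 FPKM) were within 4-fold, at differences of 0.49, 0.44 and -0.28. Bcl3, an atypical inhibitor, stood at 42.4, 148 and 48.3 FPKM, and Tlr2 and Myd88, of Toll-like receptor signalling, at 16.6, 48.5 and 24.6 FPKM and 10.6, 38.0 and 24.1 FPKM. With median ratio scaling 3 genes were higher and 2 lower, Nfkbiz and Irak3 losing their call.

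TNF superfamily genes split 5 higher and 3 lower of 22 compared, with a median of 0.19 that became -0.06 with median ratio scaling. Tnf stood at 63.5, 6.32 and 18.9 FPKM, a difference of 3.14. Its receptor genes differed in opposite directions, Tnfrsf1b at 54.0, 4.32 and 25.1 FPKM (3.37) and Tnfrsf1a at 53.7, 139.9 and 73.1 FPKM (-1.37, within 4-fold). The decoy receptor genes Tnfrsf22 (7.12, 0.612 and 2.89 FPKM) and Tnfrsf23 (21.9, 0.717 and 5.92 FPKM) were higher. The lower genes were Tnfrsf18 (0.632, 6.92 and 2.10 FPKM), Tnfrsf21 (16.8, 72.2 and 31.2 FPKM) and Ngfr, the low-affinity neurotrophin receptor (0.496, 5.57 and 5.40 FPKM).

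Genes of prostaglandin and leukotriene synthesis were higher in 4 of 15 members compared and lower in 0, with a median of 1.17. With median ratio scaling 3 were higher and 1 lower, and Pla2g4a lost its call. Ptgs2, the inducible cyclooxygenase, stood at 556, 33.2 and 72.6 FPKM, a difference of 4.03, while the constitutive Ptgs1 stood at 0.607, 5.26 and 7.78 FPKM (-1.96). Pla2g4a, which releases arachidonic acid from membranes, stood at 25.6, 5.15 and 4.62 FPKM and Ptgis, the prostacyclin synthase, at 14.5, 0.188 and 9.42 FPKM. Ptges, the prostaglandin E synthase, differed little (43.6, 56.1 and 37.1 FPKM). Alox5ap, a partner of 5-lipoxygenase, was high in LCC (210.0, 10.8 and 17.8 FPKM, 4.16), but Alox5 itself did not reach 1 FPKM in either library.

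Matrix metalloproteinases cut collagens and other matrix proteins, and they were higher or within 4-fold in LCC, with none lower. Of 22 protease and inhibitor genes compared, 9 were higher (Mmp3, Mmp9, Mmp10, Mmp12, Mmp13, Mmp19, Adam8, Adam12 and Timp1), and the median was 1.23. The stromelysins Mmp3 and Mmp10 stood at 278, 0.587 and 62.5 FPKM and at 18.6, 0.0503 and 1.78 FPKM. The collagenase Mmp13 stood at 27.0, 0.0535 and 3.09 FPKM and the macrophage elastase Mmp12 at 111, 0.495 and 8.31 FPKM. In all of these E-Int29-Hi was below 1 FPKM and MG in between. The gelatinase Mmp9 (33.6, 0.854 and 1.32 FPKM) and the sheddase Adam8 (44.7, 0.588 and 4.81 FPKM) were high in LCC alone. Mmp9 is also on the neutrophil marker list given above. The gelatinase Mmp2 stood at 69.3, 122 and 159.4 FPKM and the membrane-type Mmp14 at 157, 72.3 and 86.8 FPKM, both within 4-fold. Among the inhibitors Timp1 was higher (352, 47.7 and 24.3 FPKM, 2.86), whereas Timp2 (53.8, 61.7 and 181 FPKM) and Timp3 (53.3, 135 and 144 FPKM) were not.

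Mmp3, Mmp10, Mmp12 and Mmp13 sit together on chromosome 9, and the AP-1 motif TGANTCA (7 letters, searched on both strands), which Fos and Jun proteins bind, stands shortly before the start of each. The stretches shown for that reason are chr9:7445716-7445821 (Mmp3), chr9:7502219-7502341 (Mmp10), chr9:7347270-7347373 (Mmp12) and chr9:7272419-7272513 (Mmp13) of GRCm38.p6 from RefSeq, on the plus strand and with the motif in capitals.
Mmp3: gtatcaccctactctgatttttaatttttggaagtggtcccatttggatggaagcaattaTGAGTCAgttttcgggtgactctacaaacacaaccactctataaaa
Mmp10: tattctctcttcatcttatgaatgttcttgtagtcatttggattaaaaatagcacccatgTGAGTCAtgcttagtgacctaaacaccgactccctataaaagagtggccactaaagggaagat
Mmp12: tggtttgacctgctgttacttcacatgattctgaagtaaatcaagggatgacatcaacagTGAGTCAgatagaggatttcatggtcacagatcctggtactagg
Mmp13: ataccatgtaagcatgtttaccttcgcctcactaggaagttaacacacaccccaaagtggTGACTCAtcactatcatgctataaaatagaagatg
The motif begins 46, 63, 44 and 35 bases before the start in these genes. Of 22 distinct genes called higher in the metalloproteinase, plasminogen and interleukin lists, 16 were in the promoter table and 9 had it, the others being Anxa2, Il1a, Il1rn, Il6 and Serpinb2. It was present in 53 of 480 promoters of all genes called higher (400 of 566 genes had a promoter in the table), in 36 of 565 promoters of those called lower, in 588 of 12043 (4.88%) of all compared genes and in 6.75% of the whole table of 32851. These shares are descriptions without a test, since promoters of 1 gene overlap and gene clusters share sequence. Transcript levels of Fos and Jun are given below, and use of these sites was not tested.

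Of 15 plasminogen and coagulation genes compared, 4 were higher in LCC and 0 lower (median 1.48). The activator Plau (265, 34.3 and 108.4 FPKM) and the intracellular inhibitor Serpinb2 (151, 0.584 and 5.79 FPKM) were both higher, while the receptor Plaur (235, 98.9 and 102 FPKM) was within 4-fold. Coagulation factor F10, which cleaves prothrombin, stood at 15.2, 0.0623 and 0.853 FPKM, a difference of 3.93, and F3, tissue factor, at 114, 63.7 and 362 FPKM, a difference of 0.84. Anxa2, a surface partner of plasminogen activation, differed by 2.38, and its partner S100a10 by 1.61 (681, 222 and 224 FPKM).

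Collagens divided almost evenly by type. Of 25 compared, 11 were higher, 11 lower and 3 within 4-fold, and the median was -1.80. The higher ones were the fibril-forming Col1a1, Col1a2, Col3a1, Col5a1, Col5a2 and Col5a3, the beaded-filament Col6a1, Col6a2 and Col6a3, and Col8a1 and Col15a1. Col5a3 differed most (277, 1.25 and 70.6 FPKM, 6.95), followed by Col6a3 (379, 10.4 and 167 FPKM, 5.06). Col1a2 stood at 348, 18.7 and 640.1 FPKM. In Col5a3 and Col6a3 LCC was the highest of the 3 libraries, and in Col1a2 the gland was. The lower ones included the basement membrane collagens Col4a2 (77.4, 363 and 176 FPKM), Col4a5 (3.78, 77.4 and 13.2 FPKM) and Col4a6 (2.10, 50.7 and 5.08 FPKM), and Col7a1, which anchors epithelium (12.8, 89.9 and 13.2 FPKM). Col4a1 fell short of the threshold (122, 425 and 314 FPKM, -1.80) and passed it with median ratio scaling. The fibril-associated Col12a1, Col14a1 and Col16a1 were lower too, with Col16a1 at 30.9, 389 and 57.7 FPKM and Col14a1 at 3.13, 133 and 57.6 FPKM. The remaining ones, Col9a1, Col9a2, Col9a3 and Col11a1, belong to cartilage and are described below. Col1a1, Col1a2, Col3a1, Col5a2 and Col6a3 are also fibroblast markers, whose sum was higher in LCC as given above.

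**Figure D4:**
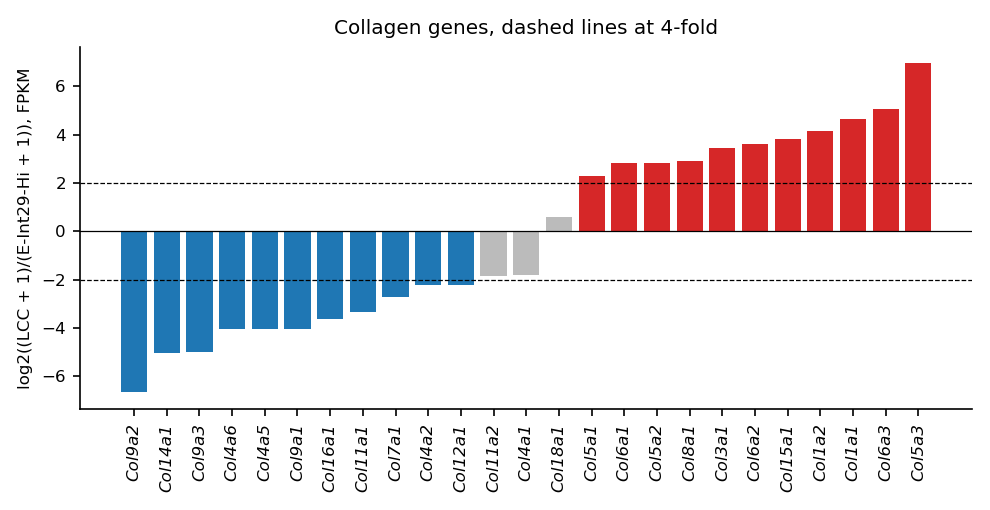
Difference of each of the 25 collagen genes compared, as log2((LCC + 1)/(E-Int29-Hi + 1)) of FPKM, with dashed lines at 4-fold; red bars are called higher, blue bars lower and grey bars neither. The 11 higher genes are of types 1, 3, 5, 6, 8 and 15, and the 11 lower ones are of types 4, 7, 9, 11, 12, 14 and 16.

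Laminins and other basement membrane genes had 2 higher (Lama2 and Smoc2) and 4 lower (Lama1, Agrn, Frem2 and Egfl6) of 18 compared, with a median of -0.60. Agrn, a heparan sulfate proteoglycan, stood at 32.5, 136 and 31.3 FPKM. Egfl6 stood at 0.0169, 8.32 and 0.447 FPKM and Lama1 at 0.765, 32.3 and 1.67 FPKM, so E-Int29-Hi was the single high library for each. Lama3 (59.7, 153 and 18.3 FPKM) and Lamb3 (69.98, 106 and 15.1 FPKM), laminin chains that basal epithelium secretes, were within 4-fold. The common chain Lamc1 was level (97.4, 94.5 and 97.6 FPKM).

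Among matrix glycoproteins and proteoglycans 7 of 30 were higher (Fn1, Tnc, Thbs2, Lum, Bgn, Ecm1 and Has1) and 3 lower (Eln, Matn4 and Ctgf), with a median of 1.01. Tnc, tenascin C, was high in LCC alone (379.8, 8.39 and 28.8 FPKM, 5.34), while Fn1, fibronectin, was highest in the gland (138, 15.2 and 271 FPKM, 3.11). Bgn, biglycan, stood at 632, 121 and 114 FPKM and the hyaluronan synthase Has1 at 216, 32.3 and 96.8 FPKM. Cd44, the hyaluronan receptor, was just within 4-fold (649, 169 and 149 FPKM, 1.94). The elastin gene Eln was lower (10.1, 173.9 and 59.0 FPKM, -3.98). The related matricellular genes Ctgf (49.0, 1234 and 122 FPKM, -4.63) and Cyr61 (351, 156 and 435 FPKM, 1.17), both known targets of the coactivator YAP, differed in opposite directions. Yap1 itself was lower (24.0, 136 and 56.4 FPKM, -2.46).

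Integrin genes were mostly within 4-fold (15 of 18, median 0.34). Itga6, a subunit of the laminin receptors, was lower (26.8, 351 and 93.0 FPKM, -3.66), while its partner Itgb4 was not (37.4, 24.97 and 26.9 FPKM, 0.56). Itgb6, an epithelial receptor of latent TGF-beta, was higher (10.9, 0.680 and 5.63 FPKM, 2.82), as was the leukocyte subunit Itgb2 (23.2, 2.54 and 4.76 FPKM, 2.77). The part of leukocytes in Itgb2 was not tested. The fibronectin receptor subunit Itga5 stood at 121, 98.1 and 89.9 FPKM.

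Basal keratin and transcription factor genes were lower in 12 of 19 members compared and higher in 0, with a median of -2.21, and their sums were 723.2, 5493.7 and 495.0 FPKM. Krt5 stood at 92.3, 426 and 60.7 FPKM, a difference of -2.20, and Krt14 and Krt17 differed by -3.50 and -3.01. For Krt5, Krt14, Krt16 and Krt17 the level in LCC was above that in the gland, and for Krt15 and Krt6a it was below. The factor Sox10 (15.0, 215 and 24.5 FPKM), Snai2, which encodes Slug (5.81, 39.9 and 7.24 FPKM), Id4 (1.77, 35.4 and 6.08 FPKM) and Irx4 (0.949, 21.7 and 2.63 FPKM) were all lower. Lgr6, a receptor of R-spondins, stood at 3.46, 19.6 and 2.49 FPKM. Krt16, a keratin of activated epithelium, was within 4-fold (53.5, 121 and 8.91 FPKM, -1.16), as were Tbx3 (13.2, 6.88 and 21.5 FPKM) and Sox9 (34.8, 49.9 and 71.6 FPKM).

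Hemidesmosomes and desmosomes tie epithelial cells to matrix and to each other. Of 20 genes compared, Itga6, Dst and Col17a1 were lower, Pkp2 was higher and 16 were within 4-fold, with a median of -1.11. Dst, dystonin, stood at 21.8, 131.9 and 61.2 FPKM and Col17a1, which spans the hemidesmosome, at 19.4, 115.4 and 23.3 FPKM. In the desmosome Pkp2 stood at 13.2, 0.380 and 11.9 FPKM (3.37) and its relative Pkp1 at 40.9, 155 and 16 FPKM (-1.90). With median ratio scaling 5 genes of the list were lower, Pkp1 among them.

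Simple epithelial keratins and tight junction genes, which are stronger in luminal cells, were higher in 11 of 22 members compared, with a median of 2.26. The only lower member was Krt23 (1.57, 25.6 and 2.87 FPKM). Krt19 stood at 244, 16.2 and 488 FPKM and Krt7 at 249, 7.96 and 98.7 FPKM. Claudins seal the junction, and Cldn3 (68.1, 3.66 and 63.3 FPKM), Cldn7 (60.6, 2.06 and 59.5 FPKM) and Cldn1 (17.1, 1.78 and 57.9 FPKM) were higher. Their partners Ocln (15.4, 1.01 and 17.3 FPKM), Cgn (17.0, 0.677 and 18.7 FPKM) and Marveld2 (10.3, 0.426 and 11.4 FPKM) were also higher, and for Cldn3, Cldn7, Ocln, Cgn and Marveld2 the level in LCC was close to that in the gland. Cdh1, E-cadherin, was level (139.8, 145 and 171 FPKM, -0.05).

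Other epithelial transcription factors were called about as often as all genes compared (4.64% higher and 4.36% lower). Of 17 compared, Ehf was higher (26.4, 1.92 and 19.0 FPKM, 3.23) and Tfap2c, named Tcfap2c in the files, was lower (5.74, 69.1 and 15.5 FPKM, -3.38), with a median of -0.32. Elf3 (24.4, 22.5 and 17.0 FPKM), Klf4 (98.9, 105 and 191 FPKM), Klf5 (38.0, 29.0 and 36.5 FPKM) and Esrp1 (20.9, 25.4 and 20.8 FPKM) were each within 1 log2 unit. Gata3, the luminal regulator, stood at 17.5, 47.2 and 20.7 FPKM, a difference of -1.38, so it did not move with the luminal keratins.

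Most hormone-sensing and milk-secreting genes were highest in the gland. Of 19 compared, Aldh1a3, Areg and Ly6a were higher and Csn2 and Lalba lower, with a median of -0.90, and with median ratio scaling 4 were lower. Aldh1a3, an enzyme of retinoic acid synthesis found in luminal progenitors, stood at 83.5, 1.16 and 71.8 FPKM (5.29). Areg, an EGF receptor ligand, stood at 54.7, 5.86 and 179 FPKM and Ly6a, which encodes Sca-1, at 95.2, 15.1 and 119 FPKM. The prolactin receptor Prlr (1.5, 1.83 and 39.4 FPKM) was nearly equal in both and far above them in the gland. Lalba, lactalbumin, stood at 0.0375, 4.55 and 94.2 FPKM and Csn2, beta-casein, at 2.57, 19.4 and 86.5 FPKM.

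The smooth muscle contractile genes, by which myoepithelium expels milk, were lower in 14 of 24 members compared and higher in 0, with a median of -3.35. Myl9, the regulatory light chain of smooth muscle myosin, stood at 4.90, 323 and 34.4 FPKM, a difference of -5.78. Mylk, the kinase that activates it, stood at 5.17, 146 and 14.4 FPKM, and Lmod1, which nucleates actin filaments in smooth muscle, at 1.67, 40.3 and 4.29 FPKM. The actin-binding genes Tagln (34.5, 744 and 62.1 FPKM) and Tpm2 (50.2, 747 and 80.6 FPKM) differed by -4.39 and -3.87. Oxtr, the oxytocin receptor that starts the contraction, stood at 0.0842, 21.3 and 4.79 FPKM. In each of these LCC was lowest and E-Int29-Hi highest, with MG nearer to LCC. Genes of the general actin cytoskeleton on the same list were within 4-fold, among them Flna (308, 457 and 113 FPKM), Actn1 (288, 379 and 142 FPKM), Vcl (70.9, 148 and 75.8 FPKM) and Cnn2 (50.8, 51.7 and 21.1 FPKM). Srf, the factor that drives many contractile genes, was also within 4-fold (22.2, 35.2 and 24.8 FPKM, -0.64).

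Actin remodelling genes were higher in 6 of 23 members compared and lower in 0, with a median of 0.93. With median ratio scaling 5 were higher and 1 lower. Lcp1, Coro1a and Vav1, known from leukocytes, were higher, with Lcp1 at 34.1, 5.20 and 13.3 FPKM and Coro1a at 21.6, 2.40 and 6.09 FPKM. Coro1a is itself on the pan-leukocyte list given above, and the part of leukocytes in these 3 genes was not tested. Arhgap22, which acts on Rac, was higher (32.0, 1.37 and 2.64 FPKM, 3.804), and so was Tmsb4x, the actin monomer-binding thymosin beta 4 (1711, 307 and 500.0 FPKM, 2.48), a gene with processed copies. The filopodial bundler Fscn1 (73.4, 32.4 and 54.7 FPKM) and the membrane linkers Msn (380.4, 134 and 159.4 FPKM) and Ezr (149, 230.1 and 136 FPKM) were within 4-fold.

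Wnt signalling, in which Wnt ligands act through Frizzled and Lrp receptors on TCF factors, had 2 higher and 8 lower genes of 32 compared, with a median of -0.88. Among the ligands Wnt7b was higher (61.0, 2.20 and 17.4 FPKM, 4.28), as was Wnt2 (3.84, 0.0459 and 5.06 FPKM), and Wnt10a was lower (1.66, 40.2 and 1.32 FPKM, -3.95). Of the receptors Fzd7 (12.0, 81.7 and 20.3 FPKM) and Fzd10 (0.153, 6.70 and 11.8 FPKM) were lower. The secreted inhibitors Wif1 (1.25, 107 and 3.61 FPKM), Dkk3 (2.94, 42.6 and 5.46 FPKM) and Sfrp2 (1.24, 7.99 and 22.3 FPKM) were lower as well. Tcf7 stood at 5.62, 44.4 and 9.73 FPKM and Rnf43, a ligase that removes Frizzled receptors, at 1.11, 27.2 and 2.56 FPKM. Thus the lower genes included 1 ligand, receptors, inhibitors and a nuclear factor, whereas the 2 higher genes were both ligands. The common target Axin2 was level (1.98, 2.28 and 2.82 FPKM, -0.14).

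In the TGF-beta, activin and BMP families, of 25 genes compared 2 were higher in LCC and 5 lower (median -0.47). The activin subunit Inhba stood at 248, 4.02 and 13.3 FPKM (5.63) and its antagonists Fst and Fstl3 at 12.0, 228 and 74.98 FPKM (-4.14) and 12.8, 61.0 and 6.96 FPKM (-2.17). Ligand and antagonists therefore lay on opposite sides. Gdf15, a stress-induced ligand, was higher (53.96, 9.54 and 68.7 FPKM) and Bmp7 lower (0.568, 31.6 and 3.02 FPKM). Tgfbr3, the co-receptor betaglycan, was lower (6.29, 63.5 and 21.9 FPKM), as was the inhibitor Smad6 (1.63, 14.6 and 6.64 FPKM), and Tgfb1 (86.9, 32.4 and 36.0 FPKM) and Tgfb2 (35.2, 10.5 and 13.6 FPKM) were within 4-fold.

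Receptor tyrosine kinases had 3 higher (Pdgfra, Pdgfrb and Ddr2) and 3 lower (Fgfr2, Fgfr3 and Ntrk3) genes of 27 compared, with a median of 0.14. With median ratio scaling 2 were higher and 5 lower, Pdgfra losing its call, and the median was -0.10. Fgfr2, which the mammary epithelium needs to grow, stood at 6.53, 70.9 and 51.5 FPKM (-3.25), and Ntrk3, the neurotrophin 3 receptor, at 0.139, 31.2 and 1.52 FPKM (-4.82). Pdgfra (18.0, 3.34 and 31.7 FPKM) and Pdgfrb (25.5, 3.84 and 36.9 FPKM), receptors of mesenchymal cells, were higher and are also markers on the fibroblast and pericyte lists. Egfr (50.6, 40.9 and 29.5 FPKM), Met (32.1, 14.5 and 64.1 FPKM) and Axl (154, 130.1 and 77.6 FPKM) were within 4-fold. Of 24 growth factor ligands 3 were higher and 3 lower (median -0.19). Of the neurotrophic ligands Gdnf was higher (12.6, 0.229 and 5.42 FPKM, 3.47) and Bdnf was lower (0.849, 11.1 and 1.17 FPKM, -2.71). Fgf1 (0.576, 6.36 and 0.888 FPKM) and Pdgfc (6.33, 31.4 and 5.82 FPKM) were the other lower ligands.

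The Notch and Hedgehog lists had 0 higher and 2 lower genes of 20 compared, with a median of 0.58. Both lower ones were Notch ligands, Jag2 (1.97, 22.8 and 8.82 FPKM, -3.00) and Dll1 (8.08, 50.8 and 19.5 FPKM, -2.51), while the ligand Jag1 was level (82.0, 89.7 and 29.0 FPKM, -0.13). The target Hes1 stood at 51.3, 30.1 and 42.5 FPKM. Among 33 axon guidance genes Ntn1, netrin 1, was higher (17.8, 2.75 and 15.9 FPKM) and 5 were lower, with a median of -0.50. The lower ones were Sema3c (8.02, 57.7 and 33.1 FPKM), Sema5a (1.86, 26.1 and 4.24 FPKM), Ntn4 (2.46, 20.4 and 3.45 FPKM), Efna5 (4.47, 21.9 and 12.1 FPKM) and Epha4 (0.678, 9.93 and 6.06 FPKM).

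The mesenchymal transition list had 8 higher members of 14 compared, 1 lower (Snai2) and a median of 2.43. Prrx1, a factor of mesenchymal cells, stood at 84.2, 3.21 and 25.3 FPKM (4.34) and Twist1 at 9.18, 0.621 and 12.3 FPKM (2.65). Zeb1 stood at 13.7, 1.45 and 13.2 FPKM and S100a4, a calcium-binding protein of motile cells, at 84.4, 3.22 and 11.02 FPKM. Snai1 (12.6, 9.98 and 26.8 FPKM) and Cdh2, N-cadherin (1.83, 3.48 and 1.53 FPKM), were within 4-fold. Fibroblasts also express Prrx1, Twist1, Zeb1 and S100a4, and 11 of 16 fibroblast markers were higher in LCC as given above.

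E-Int29-Hi also held genes best known from other tissues, which were far lower in LCC. Of 9 cartilage genes compared, 5 were lower and 0 higher, with a median of -3.33. Col9a2 (0.310, 132 and 9.75 FPKM), Col9a3 (1.60, 80.9 and 7.21 FPKM), Col9a1 (0.0347, 15.9 and 6.16 FPKM) and Col11a1 (0.147, 10.5 and 3.17 FPKM) encode chains of cartilage fibrils, and Mia1 (1.53, 31.8 and 3.64 FPKM) a cartilage-derived protein. The defining cartilage genes Col2a1, Acan, Comp and Matn1 were below 1 FPKM in both libraries. Of 14 neural crest and Schwann cell genes, 5 were lower, among them Sox10, Ngfr, Mia1 and Scn7a, and L1cam was higher (8.58, 0.646 and 4.60 FPKM). Scn7a, a sodium channel gene, stood at 1.21, 63.8 and 14.3 FPKM (-4.88).

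Of 13 salivary gland secretory genes, 7 were lower and 2 higher, with a median of -2.22. The lower ones, Psp, Dcpp1, Dcpp2, Dcpp3, Smr3a, Amy1 and Chi3l1, include near-identical copies, so the separate values of the Dcpp genes and of Amy1 are uncertain. Smr3a stood at 1.37, 82.0 and 0.0367 FPKM and Psp at 0.358, 147 and 0.121 FPKM. Both were at most 0.121 FPKM in the gland, so these transcripts were high in E-Int29-Hi alone. Chi3l1, a chitinase-like protein also made by other epithelia, stood at 14.1, 1305 and 87.8 FPKM. The higher members include Scgb3a1, which is also a lung epithelial marker.

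Immediate early genes, which are induced within minutes of a stimulus, had 0 of 21 members 4-fold apart, with a median of -1.003, but 4 were lower with median ratio scaling. Fos, 1 of these 4, stood at 94.7, 369 and 604 FPKM (-1.95). Junb (329, 614 and 453 FPKM), Nr4a1 (100.1, 244 and 127 FPKM), Egr1 (168, 209.6 and 394 FPKM), Jun (222, 209.5 and 355 FPKM) and Myc (165, 83.0 and 140.2 FPKM) were within 4-fold. Of 18 MAP kinase feedback genes Dusp10 was higher (36.0, 2.31 and 18.5 FPKM) and Dusp6 (23.6, 135 and 65.4 FPKM), Dusp14 (4.43, 20.8 and 3.70 FPKM) and Errfi1, an inhibitor of the EGF receptor (235, 1708 and 316 FPKM), were lower, with a median of -0.76.

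Metallothioneins, small metal-binding proteins, were lower in LCC: Mt1 stood at 412, 4624 and 560.0 FPKM (-3.49) and Mt2 at 374, 3072 and 565 FPKM (-3.03). The other lower gene of the 17 glucocorticoid-responsive and metallothionein genes compared was Lcn2, and 0 were higher (median -0.34). The glucocorticoid targets Fkbp5 (12.5, 4.57 and 10.6 FPKM), Tsc22d3 (12.5, 5.96 and 9.80 FPKM) and Sgk1 (226, 198 and 268 FPKM) were within 4-fold. Pdk4, which restrains glucose oxidation, was high in both sorted libraries and low in the gland (231, 254 and 11.7 FPKM). In the clock Per2 was lower (4.04, 24.1 and 20.1 FPKM) and the other 17 genes compared were within 4-fold (median -0.89), while 2 were lower with median ratio scaling.

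Most stress response genes were within 4-fold, as were most of all genes compared. Of 21 heat shock and unfolded protein genes, Chac1, a glutathione-degrading enzyme induced by amino acid stress, was higher (25.6, 2.89 and 23.6 FPKM) and the others were within 4-fold, with a median of 0.54. The near-identical copies Hspa1a and Hspa1b stood at 173.0, 279 and 490.1 FPKM and 229, 389 and 675 FPKM. In the NRF2 and iron list Prdx1, a peroxiredoxin (458, 105 and 108 FPKM, 2.12), and Slc11a1, a phagosomal metal transporter of macrophages (18.2, 1.12 and 2.16 FPKM), were higher and Cp, ceruloplasmin, was lower (10.4, 76.6 and 38.3 FPKM), of 20 compared with a median of 0.42. Prdx1 lost its call with median ratio scaling. Hmox1, heme oxygenase, was level (153, 134 and 534 FPKM).

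Of 25 glycolysis and hypoxia genes 1 was lower, the carbonic anhydrase Car12 (1.01, 15.2 and 1.53 FPKM), and the median was 0.25. With median ratio scaling 2 were lower and the median was -0.03. Of 16 solute transporters 1 was higher, the peptide transporter Slc15a3 (17.9, 1.81 and 5.25 FPKM), with a median of 0.27, or -0.001 with that scaling. The oxidative phosphorylation list had 0 of 21 genes 4-fold apart, but all 21 stood above E-Int29-Hi, with a median of 0.89 against 0.26 for all genes. Ndufa4 stood at 262, 87.1 and 71.3 FPKM and Cox5a at 98.6, 33.2 and 38.5 FPKM. The cytosolic ribosome list had 0 of 24 apart, 22 above and a median of 0.44, and ribosomal genes have many processed copies. Among lipid genes Plin2, which coats lipid droplets, was higher (526, 63.4 and 136 FPKM), as was the lipase Lpl (23.5, 2.97 and 49.97 FPKM), and the adipocyte gene Fabp4 was lower (60.4, 276 and 845 FPKM), of 21 compared, and with median ratio scaling 2 were lower.

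Cell cycle genes showed no rise in mitotic transcripts. Mki67 (1.19, 1.01 and 4.00 FPKM) and Top2a (1.21, 1.80 and 5.37 FPKM) were low in both, and Ccnb1, Plk1 and Aurka did not reach 1 FPKM in either. Ccnd1, cyclin D1 (52.7, 11.5 and 16.8 FPKM, 2.11), and Mcm2, of the replicative helicase (8.74, 1.35 and 3.28 FPKM, 2.05), were higher of 19 compared, and both lost their call with median ratio scaling. Of the other helicase genes, Mcm3, Mcm5, Mcm6 and Mcm7 differed by 1.86, 1.89, 1.96 and 1.60 and Mcm4 by 0.48.

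Antigen presentation genes were higher in 7 of 18 members compared and lower in 0, with a median of 1.69. The class II genes H2-Aa (309, 28.4 and 66.8 FPKM), H2-Ab1 (153, 12.3 and 32.9 FPKM) and Cd74, their invariant chain (492, 59.5 and 165 FPKM), were higher, as were the costimulatory Cd80, Cd83 and Cd86, with Cd86 at 13.99, 0.848 and 3.96 FPKM. The class I genes H2-K1 (374, 186 and 307 FPKM) and H2-D1 (943, 459 and 606 FPKM) and B2m (984, 281 and 590.4 FPKM) were within 4-fold, and members of the H2 family share sequence. Antigen-presenting leukocytes express class II and costimulatory genes, and the part of such cells in these values was not tested. Cd83 is also on the dendritic cell marker list given above. Of 16 interferon response genes 1 was higher, Gbp2 (73.5, 7.35 and 69.8 FPKM), with a median of 0.88. In the complement and acute phase list Ptx3, a soluble pattern receptor, was lower (12.0, 64.04 and 354 FPKM) and 0 of 21 were higher. Of 25 Hox genes listed, 7 were compared and 0 were 4-fold apart.

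Outside the lists the genes at 100 FPKM or more and 4-fold apart included several secreted or membrane-binding proteins. Lgals3, galectin 3, stood at 1026, 14.7 and 440.5 FPKM (6.03) and Lgals1 at 649.7, 77.01 and 77.1 FPKM (3.06). The annexin Anxa1 (821, 45.3 and 297 FPKM, 4.15) and the calcium-binding S100a6 (1439, 159.9 and 342 FPKM, 3.16) were higher, as were the hyaluronan-binding Tnfaip6 (336, 9.69 and 261 FPKM, 4.98) and the stress-induced Nupr1 (117, 5.94 and 43.9 FPKM, 4.08). On the lower side the protease inhibitor Slpi stood at 241, 2238 and 147 FPKM (-3.21) and the lipid carrier Apoe at 132, 1541 and 435 FPKM (-3.53). The insulin-like growth factor binding genes Igfbp5 (26.1, 515 and 221 FPKM), Igfbp3 (31.4, 381 and 83.3 FPKM) and Igfbp2 (5.42, 135 and 11.4 FPKM) were all lower. Arc, known from active neurons, stood at 12.4, 491 and 30.7 FPKM (-5.19), and Sfn, the epithelial 14-3-3 sigma, at 213, 1119 and 113 FPKM (-2.39). Il17b, an interleukin of the IL-17 family, stood at 1.90, 131 and 6.03 FPKM (-5.52).

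**Figure D5:**
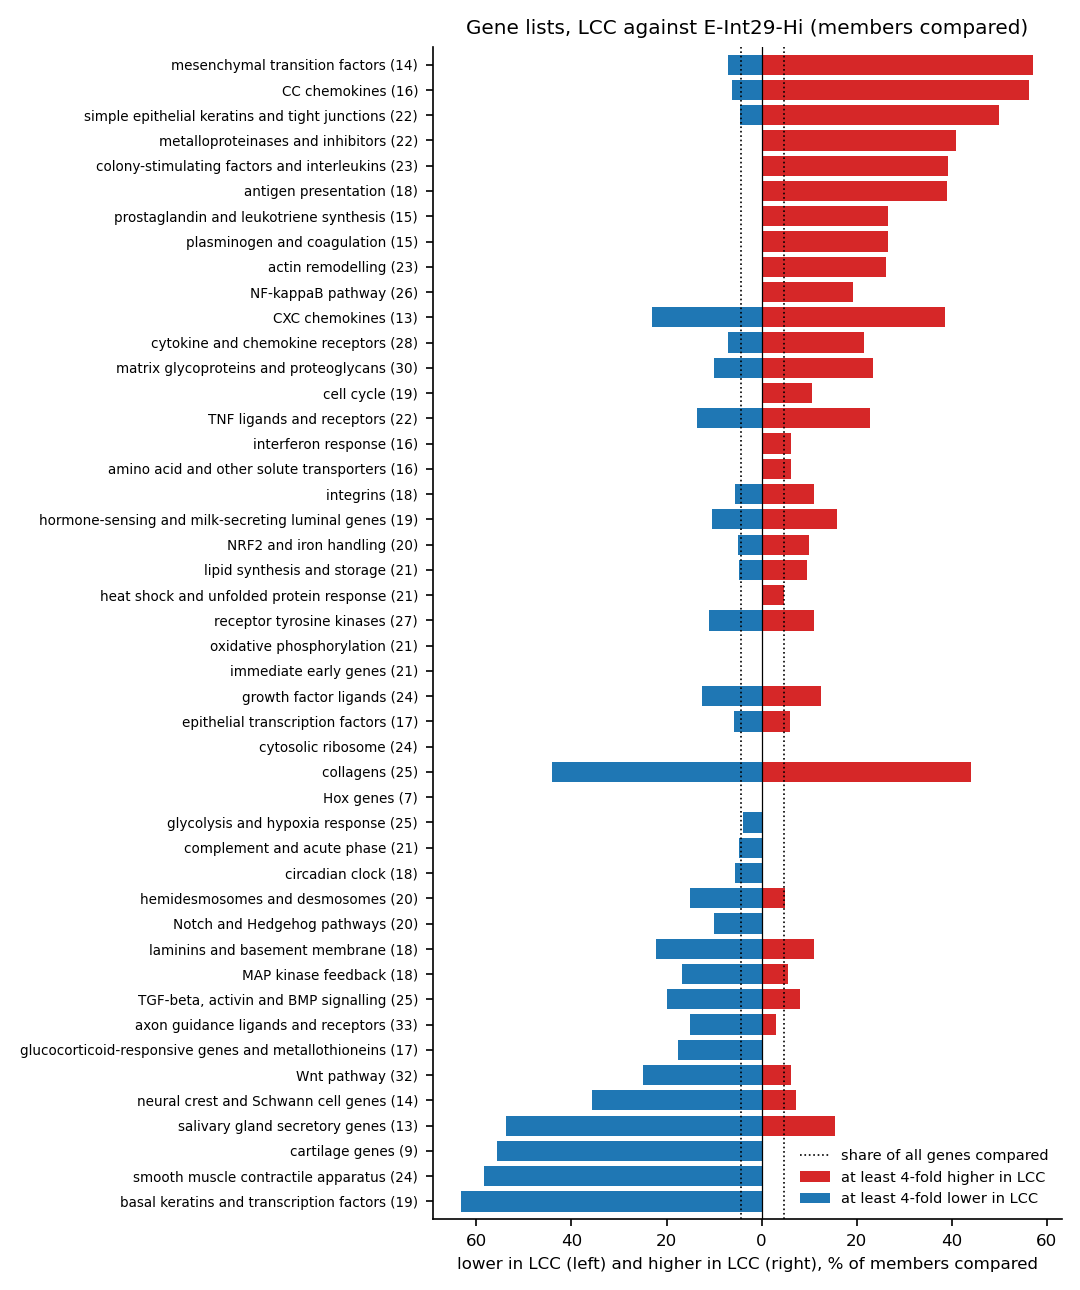
Percentage of the members compared (number in parentheses) of each gene list that were at least 4-fold higher (right, red) or lower (left, blue) in LCC, ordered by the difference of these percentages, with dotted lines at 4.64% and 4.36%, the shares over all genes compared. The mesenchymal transition, CC chemokine and simple epithelial lists stand at the top, the basal keratin, contractile and cartilage lists at the bottom, and the collagens have equal bars on both sides.

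Over the 46 lists, 11 had higher members and no lower ones, 8 had lower ones and no higher ones, 23 had both and 4 had neither. The lists overlap in their members, and their counts are read beside the 4.64% and 4.36% of all genes. At the edge of the threshold, the 3 genes just inside on the higher side were Fdps, Mfhas1 and Nme1, with Nme1 at 131, 32.0 and 28.0 FPKM, and just outside were Emp1 (628, 156 and 634 FPKM), Anxa3 (95.4, 23.2 and 65.5 FPKM) and Thy1 (18.3, 3.84 and 35.0 FPKM). On the lower side Ankrd9, Zbtb20 and Hmcn1 were just inside, with Zbtb20 at 4.56, 21.3 and 9.54 FPKM, and Fmo2, Pxk and Pawr just outside, with Pawr at 25.4, 104 and 25.3 FPKM.

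Some genes were listed at 0 in either library, for which no fold is given. Of those that E-Int29-Hi expressed above 10 FPKM, the ones listed at 0 in LCC included the neuropeptide gene Npy (10.9 FPKM), Luzp2 (15.96 FPKM) and Dcpp2 (13.7 FPKM). A gene model named Uck2 (ENSMUSG00000053664) stood at 0, 909.6 and 106 FPKM, whereas the other model of that name (ENSMUSG00000026558) stood at 39.7, 33.9 and 25.8 FPKM. The unnamed 5730522E02Rik stood at 0, 576 and 179.9 FPKM. In all, 28 of the genes called lower were listed at 0 in LCC and 10 of those called higher were listed at 0 in E-Int29-Hi, and a 0 in such tables can be a failed estimate.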

How the data were processed

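Messenger RNA was selected on poly-T beads with a TruSeq kit and read on an Illumina HiSeq instrument, per the labels' protocols. The authors deposited 1 table of FPKM values with a status per gene for each of the 3 libraries. Per the submitters' processing notes, TopHat 1.4.1 and Cufflinks 1.3.0 were used with build mm9. The gene annotation they used was not given in the sources used here. Read counts and depth are unknown, so no count model and no interval was used.

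Genes with status OK in LCC and E-Int29-Hi (22210) and at least 1 FPKM in either (12205) were compared as log2((LCC + 1)/(E-Int29-Hi + 1)), with calls at 2 or more in size. Of 22378 genes, 78 had no value and 90 were left out for status. FPKM summed to 376096 (LCC), 326926 (E-Int29-Hi) and 289937 (MG), and the commonest LCC to E-Int29-Hi ratio among genes under 0.1 FPKM was 1.12 (15 of 395 genes). Samples were grouped by their labels. The comparison, its 46 gene lists and 13 marker lists were chosen with earlier results of these data known. The text names the 40 highest and 40 lowest genes at 10 FPKM or more, list members 4-fold apart or among the 6 most abundant of their list, genes at 100 FPKM or more and 4-fold apart, the 20 most abundant genes, 3 genes on each side of each threshold, and genes listed at 0 in either library and at 10 FPKM or more in the other. The text gives a part of these, and list members outside the rule that are given beside them, such as Lifr, were chosen after their values were seen.

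List symbols were matched with a current symbol table (20773 IDs matched). Promoters are from RefSeq (GRCm38.p6, not the build of the FPKM tables), and 250 bases before each start were searched on both strands for motifs of NF-kappaB, AP-1, TEAD factors and the CArG box. The CArG box was in 1.25% of promoters of genes called higher, 1.06% of those called lower and 1.15% of all compared. For the TEAD motif these shares were 13.8%, 12.4% and 10.7%. Alternatives were pseudocounts of 0.1 and 5, dropping the filter or raising it to 5 FPKM, median ratio scaling, rescaling to a common sum, and other handling of status, zeros and marker genes. The steps were tested on simulated data. Python 3.11.15, numpy 2.4.6, pandas 2.3.3 and matplotlib 3.10.9 were used. A few genes that the naming rule covers are not reported here.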

Additional observations from a re-analysis of the deposited data

Results flagged for a closer look

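Genes whose status was not OK in LCC or E-Int29-Hi took no part in the comparison, and 5 named ones would have been called lower in LCC with their values as listed. The formin gene Fhod3, whose product assembles actin in muscle, stood at 2.53 FPKM in LCC and 49.3 in E-Int29-Hi (log2 difference -3.84), with a failed status in E-Int29-Hi. A model of Sox4 (ENSMUSG00000078309) stood at 29.5 and 272 FPKM (-3.17), with too little data in both by its status, while another Sox4 model with status OK (82.6 and 512 FPKM, -2.62) was compared and called lower. Egr2, an immediate early factor, stood at 25.2 and 137 FPKM (-2.40) and Bcar1, an adaptor of integrin signalling, at 34.4 and 148 FPKM (-2.08), both with a failed status in E-Int29-Hi. Runx1 stood at 59.8 and 250.5 FPKM (-2.05), with a failed status in LCC. Where the status failed, the value itself may not be an estimate of the level.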

How the results depend on the processing

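No paired analysis was possible because each group is 1 library. A pseudocount of 0.1 gave 1133 genes higher and 953 lower, and one of 5 gave 209 and 236 with a median of 0.159. Without the low-value filter the median was 0.000, since 22210 genes then enter and many are listed at 0. Median ratio scaling gave 442 higher and 682 lower with a median of 0.009, and all 532 genes called lower and 442 of the 566 called higher kept their call. Rescaling to a common sum without mitochondrial, small RNA and unnamed genes gave 796 higher and 874 lower with a median of 0.150. More genes (12749) passed the filter than in the main comparison (12205), so these counts do not show the effect of library scale alone. A filter of 5 FPKM (530 and 498), leaving out zeros (556 and 504), any status (566 and 537) and status OK in all 3 libraries (564 and 528) changed the counts less. Of the 605 genes in the naming rule, 117 lost their call with a pseudocount of 5 and 21 with median ratio scaling. The 605 include genes within 4-fold, such as Cdh1, which had no call to lose. Depth is unknown, and values below about 1 FPKM rest on few reads.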

Other observations

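Several further genes among the 40 highest or lowest differences, and the kinase gene Braf, belong to none of the lists used above. Higher in LCC were Clec4e, a receptor of myeloid cells (42.0, 0.0652 and 3.89 FPKM, LCC being first, E-Int29-Hi next and MG last), Irg1, which makes itaconate in macrophages (25.5, 0.0546 and 1.51 FPKM), Kcnn4, a calcium-activated potassium channel (59.3, 0.881 and 32.5 FPKM), and Crabp1, a retinoic acid-binding protein (29.4, 0.0902 and 3.10 FPKM). The pan-leukocyte markers were higher as well, and the part of those cells in Clec4e and Irg1 was not tested. Lars2, a mitochondrial tRNA synthetase, stood at 2377, 86.9 and 30.7 FPKM, and Braf at 173, 16.8 and 14.4 FPKM, so for both LCC was the only high library.

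Lower in LCC were Mybph, a myosin-binding protein (0.417, 114 and 1.46 FPKM), Alpl, an alkaline phosphatase (2.45, 138 and 12.9 FPKM), the orphan receptor Gpr3 (0.182, 50.6 and 2.27 FPKM), Stac2, an adaptor of calcium channels (5.81, 242 and 12.8 FPKM), and Aqp3, a water and glycerol channel (3.81, 114 and 71.4 FPKM). Trh, the thyrotropin-releasing hormone gene, stood at 0.0175, 20.8 and 0.345 FPKM and Nptx1, a synaptic pentraxin, at 0.712, 45.1 and 5.84 FPKM. Apoc1, a lipoprotein component, stood at 0.815, 114 and 17.1 FPKM, beside the lower Apoe.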
